A study of Mus musculus with 9 samples.

Results

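The genes described here are the FGF receptors Fgfr1, Fgfr2 and Fgfr3, the Sprouty genes Spry1, Spry2 and Spry4, the ETS factor genes Etv1, Etv4 and Etv5, and the phosphatase gene Dusp6. They are 10 named genes of 53379 in the count table, taken by symbol, and all 10 were counted deeply enough to be tested. RNA was sequenced from GFP-positive cells sorted out of the cerebral cortex of C57BL/6 mouse embryos, which had been electroporated in utero on embryonic day E13.5 and were collected at E15.5, 48 h later. Each of the 3 groups held 3 biological replicates. In the circSlc45a4 knockdown the cells carried 3 short hairpin RNAs against circSlc45a4, a circular RNA made from the Slc45a4 gene. In the Slc45a4 mRNA knockdown they carried 2 hairpins against the linear mRNA of that gene, and in the control they carried 1 scrambled hairpin sequence. All groups, the control included, shared the electroporation, the GFP label and the sort, so no group shows unmanipulated cortex. The groups also differed in how many hairpin sequences were mixed.

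Fibroblast growth factors (FGFs) bind receptor tyrosine kinases with the help of heparan sulfate. The receptors signal through adaptors, RAS and RAF to the kinase ERK. ERK activity switches on genes that report the pathway's output and damp it: Sprouty proteins block the step from receptor to RAS, Dusp6 removes the activating phosphates from ERK, and Etv1, Etv4 and Etv5 form a subfamily of ETS transcription factors induced by FGF. In the embryonic cortex FGF signalling is known for maintaining the radial glial progenitors of the ventricular zone and for patterning the cortical sheet from front to back. RNA levels alone were measured here, not ERK phosphorylation or protein.

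Total counts ran from 21073174 to 45469298 per library, so that a level of 1 CPM (a count scaled to library size) stood for 20.91 to 44.74 counts. The counts of the host gene Slc45a4 check the label of the mRNA knockdown only, since a gene total in polyA-selected libraries does not measure the circular RNA. Slc45a4 was 31.4, 33.6 and 34.0 CPM in the scramble libraries, 25.4, 25.3 and 24.7 CPM after circSlc45a4 knockdown and 13.3, 18.5 and 17.4 CPM after mRNA knockdown (log2 fold changes -0.39 and -1.01). The mRNA knockdown difference was called in all 20 alternatives. The smaller one after circSlc45a4 knockdown (adjusted p = 0.0245) was lost in 7 of 20: with a minimum change of 1.2-fold (0.2059), with the level of Xist, described next, as a covariate (-0.23, 0.581), and without scramble replicate 2 or 3 or any circSlc45a4 library (0.0659 to 0.0866). The sorted cells carried cortical markers as labelled: summed levels of 16 apical progenitor genes were 1435 to 2821 CPM and of 10 newborn neuron genes 6512 to 9643 CPM, against at most 4.415 CPM for 8 endothelial and 10.91 CPM for 8 microglial genes. Xist, which silences one X chromosome in female cells, was at most 0.239 CPM in the 3 scramble libraries and in 1 mRNA knockdown library, and 264.5 to 1550 CPM in the other 5. The Y-linked gene Ddx3y had 0 counts in mRNA knockdown replicate 1 and was read in the other 8 libraries. The presence of female cells thus coincides with the group in the comparison of circSlc45a4 knockdown with scramble, and the 2 cannot be told apart there. A fit with Xist as a covariate cannot separate them either, since Xist was low in every scramble library and high in every circSlc45a4 library. In the comparison of mRNA knockdown with scramble they coincide in part, since Xist was high in mRNA replicates 1 and 2 and low in replicate 3. The 2 comparisons with scramble share the same 3 control libraries.

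Per kilobase of exon, the receptors led the 10 genes. In the scramble libraries mean levels in RPKM (CPM per kilobase of the GENCODE M21 exon union) were 19.3 ± 0.659 (SD, n = 3) for Fgfr1, 9.36 ± 1.72 for Fgfr3 and 7.32 ± 0.0975 for Fgfr2. Spry2 followed at 6.59 ± 0.975 RPKM and Etv5 at 4.06 ± 0.911 RPKM. Dusp6 stood at 2.86 ± 0.393 RPKM, Spry1 at 1.89 ± 0.209 RPKM, Etv4 at 1.07 ± 0.381 RPKM and Etv1 at 0.975 ± 0.0800 RPKM. Spry4 was the lowest at 0.212 ± 0.0486 RPKM, which rested on 14 to 38 counts per library over all 9 libraries. In that order the ranges of neighbours overlapped for Fgfr3 with Fgfr2, Fgfr2 with Spry2, Etv5 with Dusp6, and Etv4 with Etv1. After circSlc45a4 knockdown Fgfr3 came first at 19.0 ± 3.72 RPKM, with a range overlapping that of Fgfr1 at 15.7 ± 1.48 RPKM, followed by Etv5 at 7.12 ± 0.956 RPKM. After Slc45a4 mRNA knockdown the order was that of scramble, except that Etv1 at 1.04 ± 0.291 RPKM stood before Etv4 at 0.869 ± 0.208 RPKM with overlapping ranges.

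**Figure D1:**
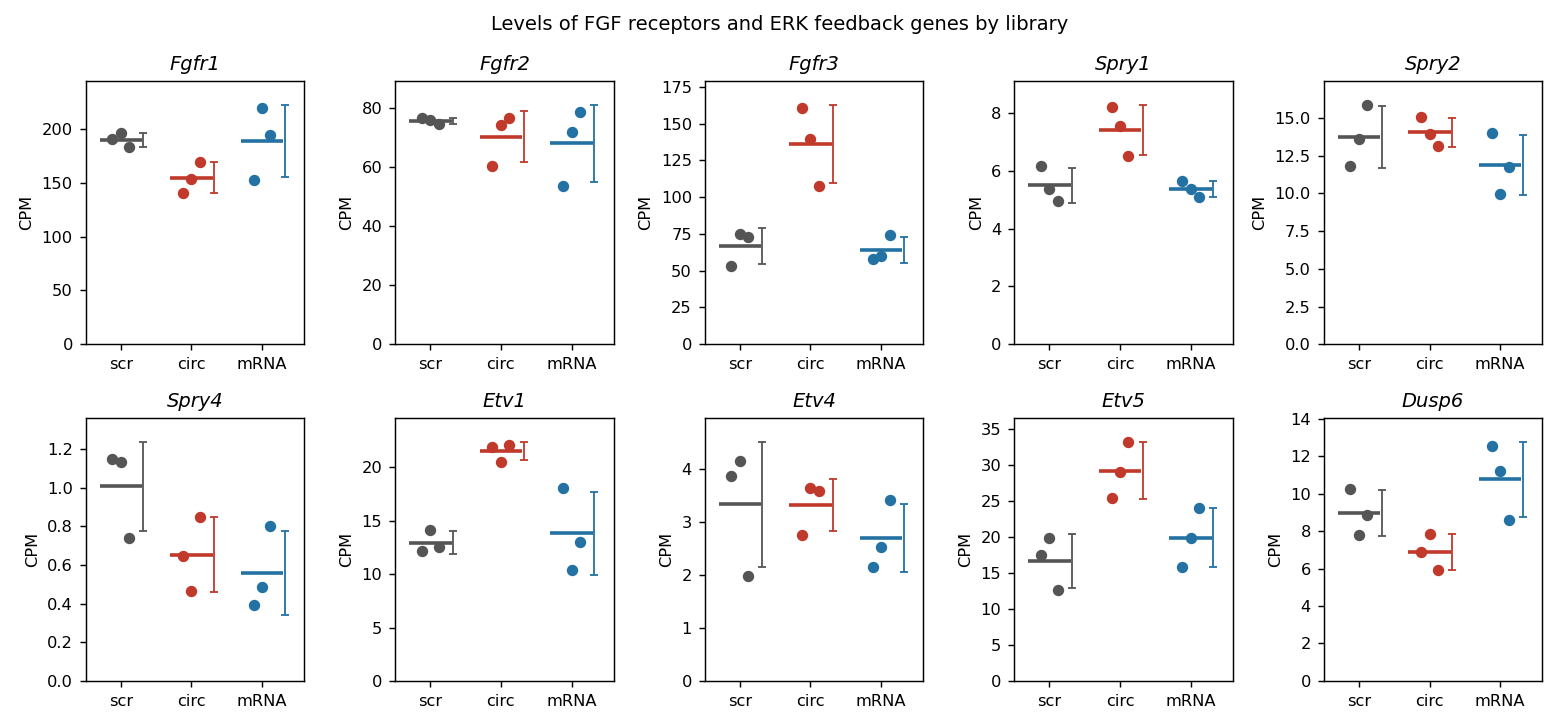
Levels of the 10 genes in CPM (each axis from 0) in the 3 scramble (scr), 3 circSlc45a4 knockdown (circ) and 3 Slc45a4 mRNA knockdown (mRNA) libraries. Points are libraries, thick lines are means and thin bars are the mean ± SD; the 3 circ points of Fgfr3, Etv1 and Etv5 all lie above the scramble and mRNA points.

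The sequence upstream of the genes is shown for the 5 members that differed in at least 1 comparison, since ETS factors, 3 of which are themselves members, bind DNA with a GGAA core. RefSeq (GRCm38.p6) gave start sites for 7 of the 10 genes, with 10 entries in all. Of the 250 bases before the first listed start, the stretch outside same-strand exons is printed, 5′ to 3′ on the gene's strand. Capitals mark GGAA or its reverse complement TTCC. The stretches are chr5:33721474-33721673, plus strand for Fgfr3, chr16:22439720-22439820, minus strand for Etv5, chr12:38779832-38780081, plus strand for Etv1, chr3:37639697-37639946, plus strand for Spry1 and chr10:99262981-99263230, plus strand for Dusp6.
Fgfr3: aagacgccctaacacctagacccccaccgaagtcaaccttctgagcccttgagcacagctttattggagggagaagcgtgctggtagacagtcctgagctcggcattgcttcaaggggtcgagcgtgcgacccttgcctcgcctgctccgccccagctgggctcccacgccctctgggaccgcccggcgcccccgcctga
Etv5: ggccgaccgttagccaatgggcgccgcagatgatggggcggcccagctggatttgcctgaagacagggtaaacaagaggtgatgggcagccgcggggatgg
Etv1: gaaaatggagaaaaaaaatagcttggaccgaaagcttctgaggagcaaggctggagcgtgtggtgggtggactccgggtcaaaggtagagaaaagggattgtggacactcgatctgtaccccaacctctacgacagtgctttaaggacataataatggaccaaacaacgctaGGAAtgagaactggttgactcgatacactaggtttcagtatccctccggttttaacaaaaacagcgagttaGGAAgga
Spry1: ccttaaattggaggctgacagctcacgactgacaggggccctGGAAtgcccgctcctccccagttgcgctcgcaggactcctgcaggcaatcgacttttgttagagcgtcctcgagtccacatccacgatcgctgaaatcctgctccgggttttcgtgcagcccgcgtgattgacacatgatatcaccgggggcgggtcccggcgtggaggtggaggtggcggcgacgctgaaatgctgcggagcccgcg
Dusp6: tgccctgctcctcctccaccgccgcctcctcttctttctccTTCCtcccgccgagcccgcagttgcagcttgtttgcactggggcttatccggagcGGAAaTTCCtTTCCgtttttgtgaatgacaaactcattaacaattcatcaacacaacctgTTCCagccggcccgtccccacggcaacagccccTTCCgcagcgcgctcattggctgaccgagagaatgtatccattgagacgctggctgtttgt
In the full 250-base windows, searched on both strands, GGAA occurred 6 times for Dusp6, 2 times for Etv1, 1 time each for Fgfr3 and Spry1, and 0 times for Etv5. Fgfr3, Etv5 and Etv1 each have a second listed start, and the window before it held 5, 4 and 1 matches, so the counts for Fgfr3 and Etv5 depend on which start is taken. The Fgfr3 match lies in the 50 bases left out because they are exonic in GENCODE M21, and the Etv1 stretch lies inside the annotated span of its gene. A GGAA match is common: 93.4% of 32851 RefSeq windows of this length held at least 1, with a median of 3. The longer ETS motif CCGGAA, which contains GGAA, was searched first and was in 12% of all windows and in 0 of the 10 member entries. The AP-1 motif TGACTCA was in 4.46% of windows and in none of the 10 entries. GGAA and CCAAT were chosen after the windows had been seen. CCAAT was in 33.8% of all windows, 3 times in the window of the first start of Etv5 and 1 time each in those of Fgfr3, Spry1 and Dusp6. At the second start it occurred 1 time for Etv5 and 0 times for Fgfr3 and Etv1. These are matches of letters only and no binding was measured.

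After circSlc45a4 knockdown, 1 receptor and 2 ETS factor genes rose while the other receptors, the Sprouty genes, Etv4 and Dusp6 did not pass the test. Fgfr3 RNA was 2.03-fold, Etv5 1.76-fold and Etv1 1.66-fold the scramble level. The 3 genes are 3 of 10 members, all higher; over the 17760 genes tested, 27.1% were called, 14.1% higher and 13.0% lower. Of all calls 52.12% were higher, and 42.32% with upper-quartile scaling. The median log2 fold change of the 10 members was 0.01, beside -0.01 over all genes tested. Adjusted p-values here and below are from edgeR's quasi-likelihood F test with Benjamini-Hochberg adjustment over all genes tested, and a gene was called below 0.05. Without mRNA knockdown replicate 1, which enters through the shared estimate of spread, 5 members were called, with Fgfr1 lower and Spry1 higher added. In bulk samples more cells of a type and more RNA per cell cannot be told apart. The summed level of 16 apical progenitor markers was 1435 to 1549 CPM in scramble and 2524 to 2821 CPM after this knockdown. Within that sum Tnc went from a mean of 37.2 CPM to 460 CPM. The part of progenitor content in the results for the members was not tested.

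Fgfr3 encodes a receptor expressed by cortical progenitors and, later, by astrocytes. It was 52.8, 75.1 and 73.0 CPM in scramble replicates 1 to 3 and 161, 139.7 and 108 CPM after circSlc45a4 knockdown, so the lowest knockdown library stood above the highest control. The log2 fold change was 1.02 ± 0.16 (SE; 95% interval 0.68 to 1.36; adjusted p = 3.95e-04), and the call was kept in each of the 20 alternative settings. These include the Xist covariate, which cannot separate sex from group in this comparison. The gene (ENSMUSG00000054252.17, chr5:33721674-33737068, GRCm38, plus strand) shares 998 of its 7158 exonic bases with the antisense RNA gene G630022F23Rik, and whether counting used the strand is not given in the sources used here. That antisense gene went the other way, from 2.96, 4.70 and 4.60 CPM to 0.537, 0.820 and 0.671 CPM (log2 fold change -2.61 ± 0.27, adjusted p = 1.78e-05), with at most 149 counts in a library.

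Fgfr1, the most abundant receptor, was 190.5, 197 and 184 CPM in scramble and 141, 154 and 169.8 CPM after circSlc45a4 knockdown. The groups did not overlap, as for 43.9% of all genes, but the log2 fold change of -0.30 ± 0.11 (SE) missed the threshold (95% interval -0.54 to -0.05; adjusted p = 0.0723). With upper-quartile scaling it was -0.35 (adjusted p = 0.0357), and it passed without mRNA knockdown replicate 1 (-0.29, adjusted p = 0.0153) or 2 (-0.29, adjusted p = 0.0492), which enter that comparison through the shared estimate of spread. It also passed with no filter on low counts (-0.30, adjusted p = 0.0128) and in the fit of the 6 libraries compared (-0.30, 0.0156). Fgfr2 was 76.6, 75.7 and 74.6 CPM in scramble and 60.3, 74.0 and 76.4 CPM after knockdown, and the groups overlapped (log2 fold change -0.11 ± 0.13, SE; 95% interval -0.38 to 0.17; adjusted p = 0.576). The annotated span of Fgfr2, chr7:130162451-133123350, includes a read-through transcript whose exons overlap Ctbp2 by 314 bases. Ctbp2, a transcriptional co-repressor gene, was 70.0 ± 1.36 CPM (SD, n = 3) in scramble and 131 ± 4.51 CPM after circSlc45a4 knockdown.

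Fgfr3 made up 21.66%, 27.81% and 28.31% of the summed RPKM of the 3 receptors in scramble and 52.76%, 46.16% and 37.95% after circSlc45a4 knockdown. The Fgfr1 share was 53.67 ± 2.59% (SD, n = 3) in scramble and 37.93 ± 5.01% after knockdown, and the Fgfr2 share was 20.41 ± 1.21% and 16.45 ± 2.51%. The summed level was 35.95 ± 1.83 RPKM in scramble and 41.48 ± 1.60 RPKM after knockdown. For all 4 quantities an exact permutation test gave a two-sided p = 0.1, the smallest that 3 against 3 libraries allow, and 0.171 after adjustment over the 12 such tests made. After Slc45a4 mRNA knockdown the Fgfr3 share was 25.94 ± 3.23%, beside 25.93 ± 3.71% in scramble (exact permutation p = 1). Shares of a sum are not independent of each other, and the rise of Fgfr3 alone lowers the other shares.

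**Figure D2:**
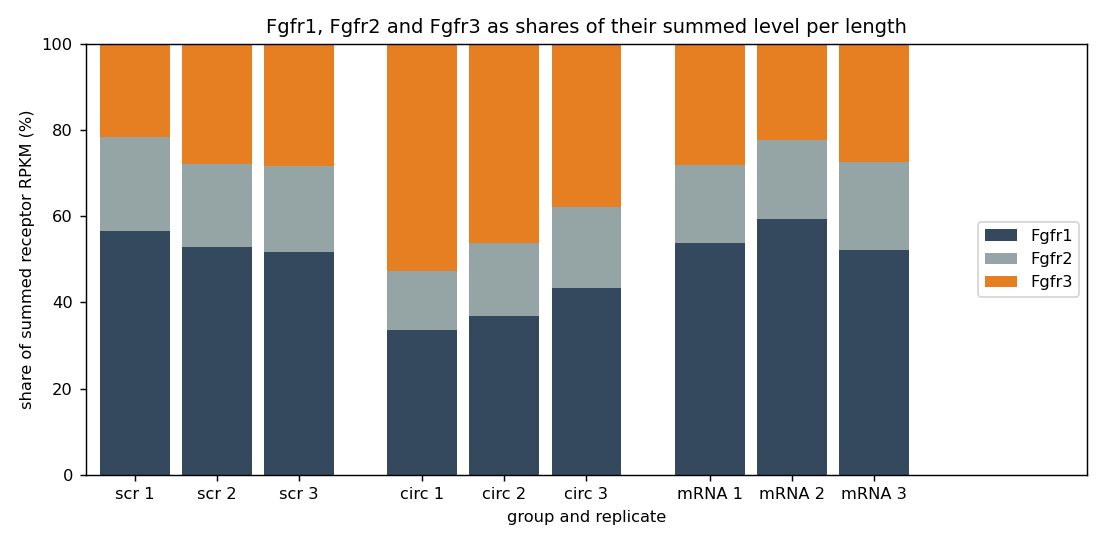
Shares (%) of Fgfr1, Fgfr2 and Fgfr3 in their summed RPKM, one stacked bar per library (scr, scramble; circ, circSlc45a4 knockdown; mRNA, Slc45a4 mRNA knockdown). The Fgfr3 share is 37.95% to 52.76% in the 3 circSlc45a4 knockdown libraries and 21.66% to 28.31% in the other 6.

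Among the ETS factor genes, Etv5 and Etv1 rose and Etv4 did not pass the test. Etv5 (chr16:22381309-22439719, minus strand), which is transcribed in response to FGF in many tissues, was 17.5, 19.9 and 12.6 CPM in scramble and 25.4, 29.0 and 33.2 CPM after circSlc45a4 knockdown, with no overlap. Its log2 fold change was 0.81 ± 0.18 (SE; 95% interval 0.42 to 1.201; adjusted p = 0.00471), and it stayed called in all 20 alternatives. The Xist covariate is among them and, as for Fgfr3, cannot separate sex from group here. Etv1 (chr12:38779380-38870484, plus strand), which also marks layer 5 projection neurons in the cortex, was 12.1, 14.2 and 12.6 CPM in scramble and 21.9, 20.5 and 22.1 CPM after knockdown, with the highest control below the lowest knockdown library. Its log2 fold change was 0.73 ± 0.17 (SE; 95% interval 0.37 to 1.09; adjusted p = 0.00538). With Xist as a covariate the change of Etv1 was 0.57 and no longer called (adjusted p = 0.272). Etv4 was 3.87, 4.15 and 1.98 CPM in scramble and 2.75, 3.64 and 3.58 CPM after knockdown. Its control libraries spread over the whole range of the knockdown libraries, and its log2 fold change was 0.00 ± 0.28 (SE; 95% interval -0.61 to 0.61; adjusted p = 0.999).

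No Sprouty gene passed the test after circSlc45a4 knockdown. Spry1 (chr3:37639947-37644598, plus strand) was 6.17, 5.38 and 4.97 CPM in scramble and 8.21, 7.57 and 6.50 CPM after knockdown, so that the groups did not overlap. Its log2 fold change was 0.44 ± 0.16 (SE; 95% interval 0.10 to 0.77; adjusted p = 0.0552). It was called with DESeq2 (0.44, adjusted p = 0.0424) and when the fit left out scramble replicate 1 (0.52, adjusted p = 0.0481), replicate 3 of the circSlc45a4 knockdown (0.52, 0.0416) or replicate 1 of the mRNA knockdown (0.44, 0.0473). Spry2 was 11.8, 13.6 and 15.9 CPM and 15.0, 14.0 and 13.1 CPM, with overlapping groups (log2 fold change 0.03 ± 0.15; 95% interval -0.29 to 0.35; adjusted p = 0.912). Spry4 was 1.15, 1.13 and 0.741 CPM and 0.648, 0.465 and 0.849 CPM, again overlapping (log2 fold change -0.61 ± 0.42; 95% interval -1.51 to 0.29; adjusted p = 0.313). At 14 to 38 counts per library the estimate for Spry4 was imprecise, and any change within that interval remains possible.

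Dusp6 (chr10:99263231-99267489, plus strand), the ERK phosphatase gene, was 10.2, 7.78 and 8.86 CPM in scramble and 6.91, 7.84 and 5.95 CPM after circSlc45a4 knockdown. The highest knockdown library just passed the lowest control, and the log2 fold change of -0.37 ± 0.17 (SE) was not called (95% interval -0.75 to 0.00; adjusted p = 0.131). Among the feedback genes and ETS factors the point estimates ran from -0.61 for Spry4 to 0.81 for Etv5.

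**Figure D3:**
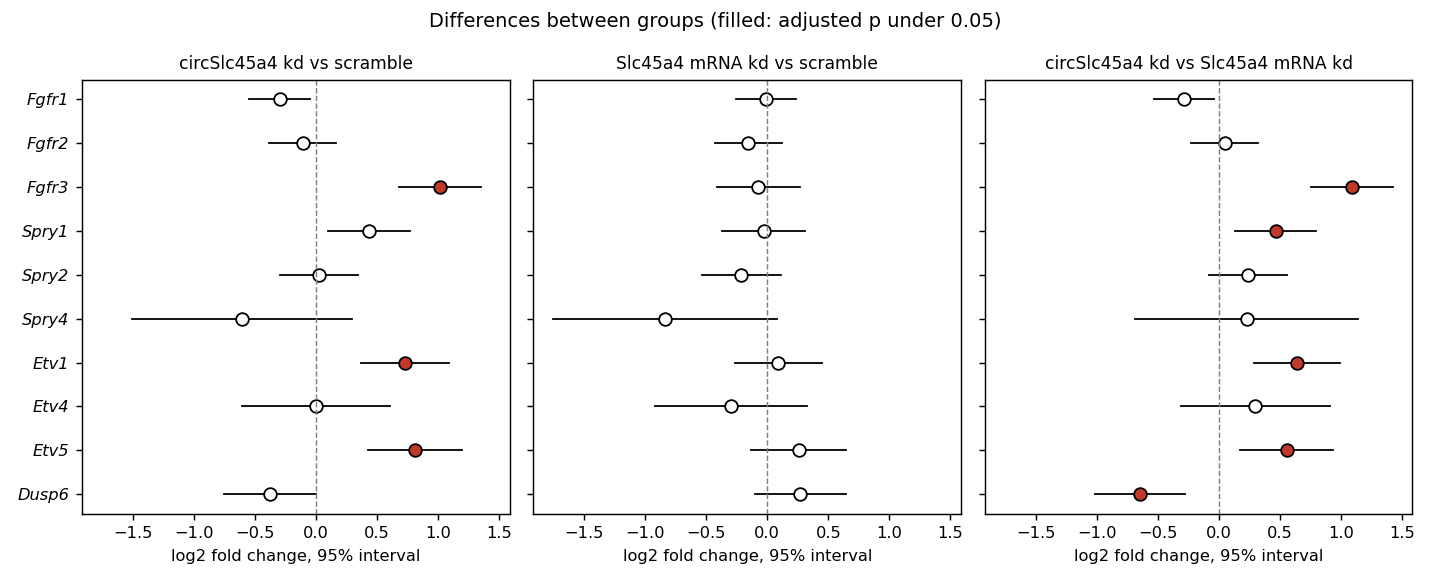
Log2 fold changes of the 10 genes with 95% intervals (horizontal bars) in the 3 comparisons; filled points passed an adjusted p of 0.05. Fgfr3, Etv1 and Etv5 are filled in the left panel, none in the middle, and Fgfr3, Spry1, Etv1, Etv5 and Dusp6 on the right.

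After Slc45a4 mRNA knockdown none of the 10 genes changed beyond the threshold. The count was 0 of 10, with 0 also at an unadjusted p under 0.05 (32.1% of all genes), 0 by limma-voom and 0 by DESeq2; 18.0% of all genes tested were called in this comparison, 8.92% higher and 9.09% lower. The members' median log2 fold change was -0.05, beside 0.01 over all genes. Fgfr3 was 57.9, 59.7 and 73.9 CPM and lay within the range of scramble (log2 fold change -0.07 ± 0.16, SE; 95% interval -0.41 to 0.27; adjusted p = 0.794). Etv5 was 15.8, 19.8 and 24.0 CPM (0.26 ± 0.18, 95% interval -0.13 to 0.65, adjusted p = 0.359). Etv1 was 18.0, 10.4 and 13.0 CPM, its first replicate above every control and its second below (0.09 ± 0.17, 95% interval -0.27 to 0.45, adjusted p = 0.752). Fgfr1 was 153, 219.6 and 194 CPM and Fgfr2 53.5, 71.7 and 78.7 CPM. For Fgfr2 replicate 1 was the lowest of the 9 libraries, and for Fgfr1 it was the next to lowest. Their log2 fold changes were -0.01 ± 0.11 (95% interval -0.26 to 0.24) and -0.15 ± 0.13 (95% interval -0.43 to 0.12).

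The Sprouty genes, Etv4 and Dusp6 likewise showed no call after mRNA knockdown. Spry1 was 5.66, 5.37 and 5.10 CPM, with a log2 fold change of -0.03 ± 0.16 (SE; 95% interval -0.37 to 0.31; adjusted p = 0.922). Spry2 was 14.0, 9.98 and 11.7 CPM (-0.21 ± 0.15, adjusted p = 0.358), Spry4 was 0.391, 0.485 and 0.803 CPM (-0.84 ± 0.43, adjusted p = 0.197) and Etv4 was 2.15, 2.54 and 3.41 CPM (-0.30 ± 0.29, adjusted p = 0.519). Dusp6 was 12.5, 11.2 and 8.59 CPM, with 2 libraries above all controls (0.27 ± 0.17, 95% interval -0.10 to 0.64, adjusted p = 0.305). The interval of Spry4 (-1.76 to 0.08) was the widest of the 10.

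The direct test between the knockdowns asks whether the members differ between cells given hairpins against the circular and against the linear RNA. Of the members, 4 were higher and 1 lower: Fgfr3, Spry1, Etv1 and Etv5 were higher after circSlc45a4 knockdown and Dusp6 was lower. That is 5 of 10 members, beside 26.1% of all genes, 13.8% higher and 12.3% lower. Of all calls 52.78% were higher, and 42.06% with upper-quartile scaling. The members' median log2 fold change was 0.27, beside -0.02 over all genes. The same 5 members had groups that did not overlap, as did 40.1% of all genes (20.3% higher, 19.8% lower).

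Fgfr3 was 2.13-fold higher after circSlc45a4 than after mRNA knockdown (log2 fold change 1.09 ± 0.16, SE; adjusted p = 2.93e-04), with no overlap, and was called in all 20 alternatives. Etv1 was higher by 0.64 ± 0.16 (SE) on the log2 scale (adjusted p = 0.0119), and the lowest circSlc45a4 library, at 20.5 CPM, stood above the highest mRNA library, at 18.0 CPM. Etv5 was higher by 0.56 ± 0.18 (adjusted p = 0.0343). The Etv5 call was lost without circSlc45a4 replicate 2 (0.57, adjusted p = 0.0794) or 3 (0.45, adjusted p = 0.121), or without mRNA replicate 1 (0.42, adjusted p = 0.109) or 2 (0.56, adjusted p = 0.0787). Spry1, which was not called against scramble, was higher by 0.47 ± 0.16 (adjusted p = 0.0413). Its call was lost in 11 of 20 alternatives, with adjusted p up to 0.1855 when a change of at least 1.2-fold was required and up to 0.1395 without a single library (circSlc45a4 replicate 1, 0.40).

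Dusp6 was the member that was lower: 6.91, 7.84 and 5.95 CPM after circSlc45a4 knockdown and 12.5, 11.2 and 8.59 CPM after mRNA knockdown, with no overlap between the 2 groups. The scramble libraries overlapped both. The log2 fold change was -0.65 ± 0.17 (SE; 95% interval -1.02 to -0.27; adjusted p = 0.0145). It missed the threshold without circSlc45a4 replicate 3 (-0.55, adjusted p = 0.0555) or mRNA replicate 1 (-0.52, adjusted p = 0.0537). When a change of at least 1.2-fold was required, Fgfr3 alone stayed called, with adjusted p of 0.0532 for Etv1, 0.0605 for Dusp6, 0.1297 for Etv5 and 0.1855 for Spry1. Fgfr1 (-0.29 ± 0.11, adjusted p = 0.0825), Fgfr2 (0.05 ± 0.13, 0.827), Spry2 (0.24 ± 0.15, 0.259), Spry4 (0.23 ± 0.42, 0.744) and Etv4 (0.30 ± 0.28, 0.486) were not called. Fgfr1 was called lower with upper-quartile scaling (-0.34, adjusted p = 0.0415), with no filter on low counts (-0.29, 0.0182) and without mRNA replicate 1 (-0.42, 0.00512).

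The rest of the pathway was followed through 97 other genes in 6 lists, of which 87 were tested. After circSlc45a4 knockdown 24 were higher and 11 lower, 40.2% of those tested, with a median log2 fold change of 0.07. After Slc45a4 mRNA knockdown 9 were higher and 13 lower (25.3%, median -0.03). Between the knockdowns 25 were higher and 9 lower after circSlc45a4 knockdown (39.1%, median 0.14). Over all genes tested the shares called in these 3 comparisons were 27.1%, 18.0% and 26.1%. Of the 35 genes called after circSlc45a4 knockdown, 13 lost the call when some single library was left out, among them Fgf9, Ier3, Fgfr4, Sdc2, Sdc3, Gpc1, Plcg1, Rasa1, Braf, Spred3, Rasa2 and Ier2, at adjusted p of 0.0504 to 0.1575. So did 10 of the 22 called after mRNA knockdown and 15 of the 34 called between the knockdowns. With Xist as a covariate 21 of the 35 lost it, while Hs2st1, Gpc3, Gab1, Cbl, Rps6ka2, Il17rd, Spred1 and Etv3 were among those called in every alternative. With the same covariate 15 of the 22 mRNA knockdown calls and 4 of the 34 between the knockdowns were lost. The 15 included Fgf9, Fgf11, Ext1, Gpc1, Gpc2, Crkl, Gab1, Grb2, Rasa1, Ksr2, Rps6ka3, Braf, Etv6 and Myc. Genes named below without values were named after their values were seen.

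The ligand list had 12 tested genes of 18, with 0 higher and 2 lower after circSlc45a4 knockdown (median -0.31), beside 14.1% and 13.0% of all genes. Fgf14, whose product is an intracellular FGF homologue that acts on sodium channels, fell from 9.47, 7.49 and 6.33 CPM to 2.95, 3.23 and 3.89 CPM (0.435-fold, adjusted p = 0.00136). Fgf9, a secreted ligand, had 36, 9 and 26 counts in scramble, 8, 6 and 8 after circSlc45a4 knockdown and 1, 1 and 2 after mRNA knockdown. The summed ratio to scramble was 0.207 (95% exact binomial interval 0.122 to 0.338) and 0.0435 (0.0115 to 0.116), where the intervals cover counting error only. Fgf9 was called lower in both comparisons (adjusted p = 0.0136 and 0.00169). Dropping scramble replicate 1 ended the first call (-1.64, adjusted p = 0.0973), as did dropping circSlc45a4 replicate 1 (-2.40, 0.0526) or 2 (-2.34, 0.0520). The second became -3.79 in place of -4.52 without scramble replicate 1 (adjusted p = 0.00841), and the Xist covariate ended both calls (0.503 and 0.0800). Fgf15 reached 11.3 CPM in mRNA knockdown replicate 1 and 0.383, 0.681 and 1.91 CPM in scramble. It was called lower after circSlc45a4 than after mRNA knockdown (-4.65, adjusted p = 0.0132), but not without that library (-1.40, adjusted p = 0.23). That call was also lost with limma-voom (-2.94, adjusted p = 0.1856) and the replicate block (-3.91, 0.06127), and without circSlc45a4 replicate 1 (-4.33, 0.06134) or 2 (-4.54, 0.05655). Fgf11, another intracellular homologue, was lower after mRNA knockdown (-0.61 ± 0.16, adjusted p = 0.0171) and lost that call without scramble replicate 1 (-0.54, 0.0620) or 2 (-0.58, 0.0718). Fgf1, Fgf3, Fgf8, Fgf16, Fgf20 and Fgf22 had at most 9 counts in a library and were not tested.

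Heparan sulfate on the cell surface is needed for FGFs to bind their receptors. The list of other FGF receptors and co-receptors, which includes heparan sulfate enzymes, had 23 tested genes. Of these 8 rose and 2 fell after circSlc45a4 knockdown (median 0.34), beside 14.1% and 13.0% of all genes. Hs2st1, which adds 2-O-sulfate to heparan sulfate, went from 30.2, 28.1 and 31.1 CPM to 72.7, 74.6 and 75.7 CPM after circSlc45a4 knockdown and to 94.1, 74.0 and 76.6 CPM after mRNA knockdown. Its log2 fold changes were 1.32 ± 0.10 (adjusted p = 1.51e-06) and 1.45 ± 0.10 (adjusted p = 2.65e-06). The glypicans, heparan sulfate proteoglycans of the cell surface, included Gpc3, from 2.77, 4.47 and 3.83 CPM to 11.7, 12.8 and 12.4 CPM (1.72 ± 0.19, adjusted p = 3.12e-05), and Gpc4, from 50.3, 46.9 and 47.4 CPM to 85.6, 79.6 and 76.0 CPM (0.74 ± 0.09, adjusted p = 5.06e-05). Gpc6, Gpc1, Ext2, Ndst1 and Sdc2 were the others that rose, and Fgfr4 and Sdc3 fell. These were named after their values were seen. Fgfr4, another FGF receptor gene, had a log2 fold change of -1.37 (adjusted p = 0.0317), a call lost in 11 of 19 alternatives. Gpc6 and Gpc1 were higher after circSlc45a4 than after mRNA knockdown by 1.55 ± 0.18 (adjusted p = 8.10e-05) and 0.76 ± 0.10 (adjusted p = 1.27e-04). After mRNA knockdown Hs2st1, Gpc4 (0.49 ± 0.09) and Gpc2 (0.44 ± 0.11) rose, while Gpc1 (-0.41 ± 0.10) and Ext1 (-0.35 ± 0.08) fell. Of these, Gpc2 was not called once scramble replicate 1 (0.42, adjusted p = 0.0546) or 2 (0.44, 0.0637) or mRNA replicate 2 (0.33, 0.0674) was dropped, nor Gpc1 once scramble replicate 2 was (-0.38, 0.0594).

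The adaptors that carry the signal to RAS did not share a direction. After circSlc45a4 knockdown 4 of 13 rose and 2 fell (median -0.04), beside 14.1% and 13.0% of all genes. Gab1, a docking protein, rose from 45.2, 50.0 and 56.3 CPM to 111, 107 and 107 CPM (1.10 ± 0.09, adjusted p = 2.98e-06). Cbl, a ubiquitin ligase for activated receptors that is also in the feedback list, rose by 0.50 ± 0.08 (adjusted p = 5.34e-04), and Sos1 and Plcg1 were the others. Grb2, the adaptor that recruits SOS, fell from 157, 153 and 150.1 CPM to 112, 116 and 114 CPM (-0.43 ± 0.07, adjusted p = 3.95e-04), and Rasa1 fell too. After mRNA knockdown Gab1 was higher by 0.34 ± 0.09 (adjusted p = 0.0191), and Crkl (-0.66 ± 0.10, adjusted p = 5.79e-04), Grb2 (-0.22 ± 0.07, 0.0327) and Rasa1 were lower. In that comparison the Gab1 call was lost without scramble replicate 1 or 2 or mRNA replicate 3 (adjusted p = 0.0768 to 0.0809). The Grb2 call was lost without any 1 of the 6 libraries compared (0.0595 to 0.106), and the Rasa1 call without any scramble library or without mRNA replicate 2 or 3 (0.0699 to 0.1345).

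Of the 15 genes of the RAS, RAF, MEK and ERK core, 3 rose and 2 fell after circSlc45a4 knockdown (median -0.06), and this count of 5 of 15 is near the 27.1% of all genes. Rps6ka2, an ERK-activated kinase, fell from 87.5, 88.1 and 76.1 CPM to 40.3, 43.5 and 49.2 CPM (-0.92 ± 0.11, adjusted p = 4.28e-05). Nras fell by 0.43 on the log2 scale (adjusted p = 7.50e-04), and Braf was among those that rose. After mRNA knockdown 0 of the 15 rose and 5 fell, beside 8.92% higher and 9.09% lower over all genes. Among the 5 were Nras (-0.77 ± 0.07, adjusted p = 1.98e-05), Ksr2 (-0.75 ± 0.14, 0.00289), Rps6ka3 (-0.35 ± 0.09, 0.0162) and Braf. Between the knockdowns 5 were higher after circSlc45a4 knockdown, among them Braf (0.54 ± 0.08, adjusted p = 3.51e-04) and Rps6ka3 (0.42 ± 0.09, 0.00373), and Rps6ka2 was lower (-0.82 ± 0.11, 1.47e-04). Of the mRNA knockdown calls, Rps6ka3 was lost without scramble replicate 2 (adjusted p = 0.0574), scramble replicate 3 (0.0546) or mRNA replicate 2 (0.0552), and Braf without scramble replicate 1 or 2 or mRNA replicate 1 or 2 (0.0601 to 0.0980).

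Beside the Sprouty genes and Dusp6, 12 other ERK feedback genes were tested. After circSlc45a4 knockdown 7 rose and 2 fell (median 0.34), against 14.1% and 13.0% of all genes. Il17rd, also called Sef, is a membrane inhibitor of FGF signalling. It was 1.82, 1.91 and 2.47 CPM in scramble, 8.21, 8.75 and 8.05 CPM after circSlc45a4 knockdown and 3.99, 4.05 and 4.90 CPM after mRNA knockdown, so the 3 groups were separate. Its log2 fold changes were 2.00 ± 0.18 (adjusted p = 7.00e-06), 1.05 ± 0.18 (adjusted p = 0.00171) and, between the knockdowns, 0.95 ± 0.17 (adjusted p = 0.00137). Spred1, a RAS-pathway inhibitor related to the Sproutys, rose in both knockdowns, by 0.60 ± 0.10 (adjusted p = 6.74e-04) and 0.57 ± 0.10 (adjusted p = 0.00167). Its relative Spred2 fell after circSlc45a4 knockdown (-0.74 ± 0.13, adjusted p = 8.89e-04). Dusp9, another ERK phosphatase gene, had 6, 51 and 10 counts in scramble and 2, 0 and 1 after circSlc45a4 knockdown, a summed ratio of 0.0299 (95% exact binomial interval 0.00601 to 0.0912, counting error only; adjusted p = 0.00198). Of the 67 scramble counts of Dusp9, 51 came from replicate 2. The fitted log2 fold change of -4.82 became -3.48 without that library (adjusted p = 0.0183) and -5.60 without circSlc45a4 replicate 1 (0.00808), and the call was lost with the Xist covariate (0.0939). Spred2 and Dusp9 were named after their values were seen. Lrig1, an inhibitor of receptor tyrosine kinases, was higher after circSlc45a4 than after mRNA knockdown (0.75 ± 0.17, adjusted p = 0.00615). After mRNA knockdown Spred1, Spred3 (0.57 ± 0.12, adjusted p = 0.00473) and Il17rd rose and 0 of the 12 fell. For the same knockdown, 8.92% of all genes tested rose and 9.09% fell.

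The last list held other ERK targets and related transcription factor genes, not all of them established as induced by ERK. Of its 13 tested genes 3 rose and 1 fell after circSlc45a4 knockdown (median 0.10), 4 of 13 and again near the 27.1% of all genes. Etv3, an ETS repressor gene, rose by 0.92 ± 0.11 (adjusted p = 7.93e-05) and, after mRNA knockdown, by 0.73 ± 0.11 (adjusted p = 8.00e-04). Phlda1 rose from 2.30, 2.69 and 2.53 CPM to 4.67, 4.26 and 3.96 CPM (0.77 ± 0.19, adjusted p = 0.00820), and Ier2 rose as well. Ier3 fell from 8.03, 7.13 and 7.63 CPM to 4.72, 5.49 and 4.65 CPM (-0.62 ± 0.17, adjusted p = 0.0166), a call lost without circSlc45a4 replicate 1 (-0.59, adjusted p = 0.0572) or 3 (-0.57, 0.0524). After mRNA knockdown Myc was higher (0.50 ± 0.13, adjusted p = 0.0154), a call lost without scramble replicate 1 (0.38, 0.0555) or mRNA replicate 2 (0.44, 0.0549), and Etv6 was lower (-0.49 ± 0.10, 0.00371). Between the knockdowns Etv6 (0.43 ± 0.10, adjusted p = 0.00495), Klf10 (0.55 ± 0.18, 0.0357) and Srf (0.61 ± 0.20, 0.0398) were higher after circSlc45a4 knockdown; Klf10 lost the call without circSlc45a4 replicate 1 or 3 or mRNA replicate 1 or 2 (0.0593 to 0.129), and Srf without scramble replicate 2, any circSlc45a4 library or mRNA replicate 1 or 2 (0.0564 to 0.118).

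**Figure D4:**
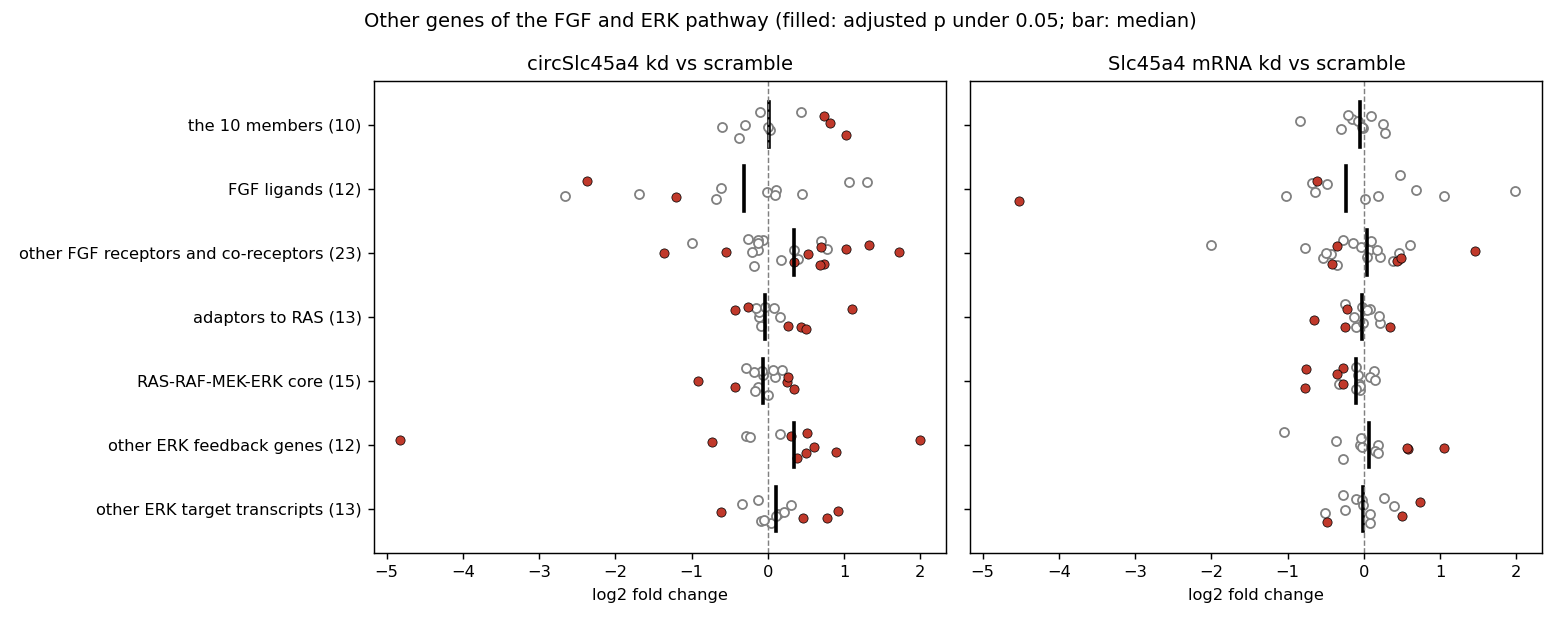
Log2 fold changes (horizontal axis) of the 10 genes and of the tested genes of the 6 pathway lists (rows, number tested in brackets) against scramble; each point is a gene, red where the adjusted p was under 0.05, and black bars are medians. Heights within a row carry no value. In the left panel the medians of the other receptors and co-receptors and of the feedback list lie at 0.34. Cbl is drawn in both the adaptor and feedback rows.

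More apical progenitor markers were called higher after circSlc45a4 knockdown than after mRNA knockdown. Of 16 apical progenitor genes 11 were higher and 0 lower after circSlc45a4 knockdown (median 0.89), with the summed levels given above. Over all genes tested 14.1% were higher and 13.0% lower. Tnc went from a mean of 37.2 CPM to 460 CPM, while Vim (428 and 451 CPM) and Prom1 (58.5 and 55.5 CPM) were not called. Pax6 and Sox2, transcription factors of radial glia, were among the 11, at 0.81 ± 0.14 (adjusted p = 9.06e-04) and 0.98 ± 0.18 (adjusted p = 0.00131). After mRNA knockdown 8 were higher and 0 lower (median 0.46), beside 8.92% and 9.09% of all genes. The summed level was 1536 to 1905 CPM and overlapped that of scramble. Pax6 (0.20 ± 0.14), Sox2 (0.20 ± 0.18) and Nes (-0.27 ± 0.13) were not called in that comparison. Basal progenitor genes had 0 of 10 higher and 6 lower after circSlc45a4 knockdown, with summed levels of 2003 to 2158 CPM in scramble and 1513 to 1785 CPM after knockdown. Upper-layer neuron genes had 1 of 8 higher and 4 lower, with sums of 2793 to 3291 CPM and 1699 to 2147 CPM, and newborn neuron genes 0 of 10 higher and 4 lower in each knockdown. Microglial genes summed to 2.439 to 4.208 CPM in scramble and 6.193 to 10.91 CPM after circSlc45a4 knockdown; Foxd1, in the meningeal list, was the 1 marker at 0 in all libraries. The lists for rostral and caudal patterning, a process in which FGFs act, summed to 713 to 778.8 CPM and 712.3 to 827.9 CPM in scramble and 701.4 to 791.3 CPM and 716.9 to 866.3 CPM after circSlc45a4 knockdown.

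**Figure D5:**
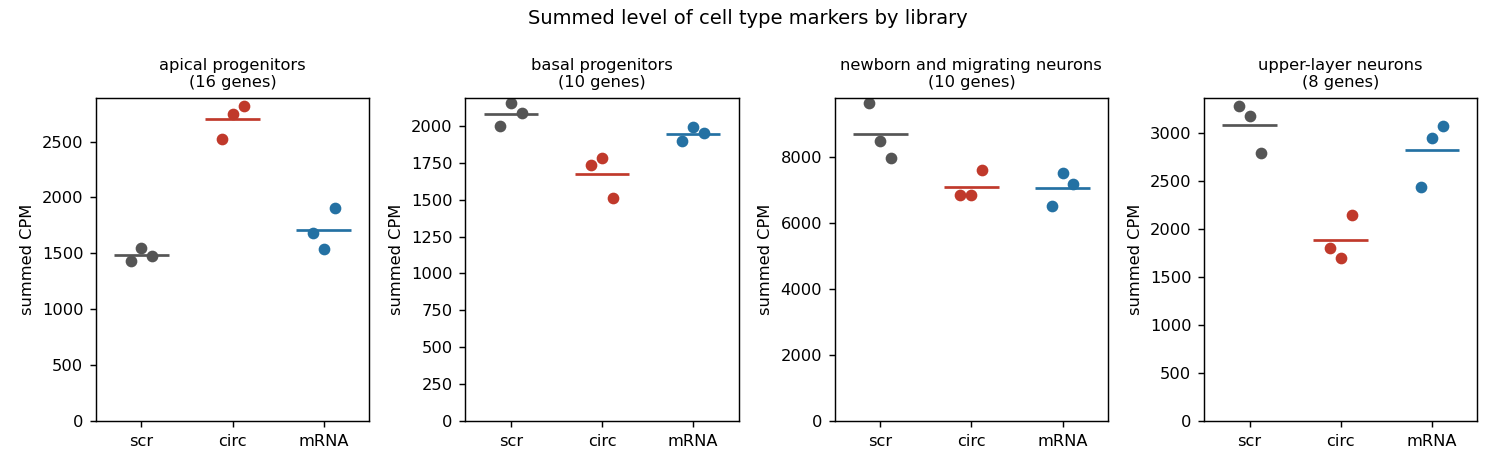
Summed CPM of marker genes of 4 cortical cell types in each library (points; lines are means, axes start at 0). Apical progenitor sums are 2524 to 2821 CPM in the circSlc45a4 knockdown (circ) libraries and 1435 to 1905 CPM in the scramble (scr) and Slc45a4 mRNA knockdown (mRNA) libraries.

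The genes with profiles most like those of the called members were found by the root mean square difference of centred log2 CPM over the 9 libraries, among 11365 genes. For Fgfr3 these were Shroom3 at 0.0804, Acvr2b at 0.107 and Dpysl4 at 0.120, against a median of 0.562 for all candidates. Shroom3 organises apical actin in epithelia and Acvr2b is an activin receptor gene. For Etv5 they were Ndrg2 at 0.120, Garnl3 at 0.136 and Arhgef26 at 0.152 (median 0.453), and for Etv1 they were Ugp2 at 0.107, Tbc1d8b at 0.115 and Rest at 0.130 (median 0.427). Rest encodes a repressor of neuronal genes. For Spry1 they were Purg at 0.0763, Cst3 at 0.0806 and Retreg2 at 0.0822 (median 0.305). For Dusp6 they were H3f3aos at 0.108, Fam241a at 0.115 and Aga at 0.116 (median 0.382). No gene was shared between the 5 lists of 3.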

How the data were processed

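Per the labels, RNA was extracted with Trizol from sorted cells and sequenced as polyA-selected libraries. STAR 2.4.2a and the mm10 build appear in the submitters' processing notes, beside bcl2fastq 2.17.1.14 and DESeq2. How strand was treated in counting, and with which annotation, is not given in the sources used here. Deposited by the authors were raw whole-number read counts per Ensembl gene for the 9 libraries, from 21073174 to 45469298 in total. Symbols were taken from GENCODE M21, which named 53274 of 53379 IDs.

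Counts were analysed in R 4.3.3 with edgeR 4.0.16: genes were kept by filterByExpr with a minimum count of 10, scaled by TMM and fitted with 1 term per group over all 9 libraries, and tested with the quasi-likelihood F test. P-values were adjusted by the Benjamini-Hochberg method over 17760 genes and called under 0.05. SEs are the absolute log2 fold change over the square root of F. CPM use TMM-scaled library sizes. The replicates are labelled biological but not by embryo or litter, and no 2 replicates of a group agreed within counting noise (9 pairs, chi-square per degree of freedom 7.74 to 41.6).

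The members and gene lists were chosen with earlier results of these data known. Named genes are the members, up to 3 called genes of smallest p per pathway list and comparison, the 3 genes nearest each called member, and Slc45a4, Xist and Ddx3y; a few pathway genes are counted in their list but not reported here by name. In tests on simulated data with these libraries' means and depths, 100 genes were changed 1.5-fold and 100 changed 2-fold. For circSlc45a4 knockdown against scramble 37% and 68% of these were recovered (14 false calls among 17447 genes). For mRNA knockdown against scramble it was 42% and 71% (8 among 17431), and between the knockdowns 44% and 70% (10 among 17426). The false calls are to be judged beside the recovered changes, not beside all genes. Far fewer genes were changed than were called in the real data, so these rates need not hold there. The alternatives were other scaling factors, limma-voom 3.58.1, DESeq2 1.42.0, a minimum change of 1.2-fold, other filters, the 6 libraries compared alone, a replicate block, an Xist covariate, thinning to the smallest library, and leaving out each library.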

Additional observations from a re-analysis of the deposited data

How the results depend on the processing

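Over the 10 genes, 3 comparisons and their alternatives, 537 of 597 values kept both direction and side of the threshold, 21 lost a call, 12 gained one and 27 turned in sign, all of the last without a call. The number of members called after circSlc45a4 knockdown was 3 (3 to 5 without single libraries, with Fgfr1 lower and Spry1 higher added without mRNA knockdown replicate 1), and after mRNA knockdown it was 0 in every alternative. Between the knockdowns it was 5, 1 with a minimum change of 1.2-fold, and 3 to 5 without single libraries (3 without circSlc45a4 replicate 2 or 3 or mRNA replicate 1 or 2); the cause was not tested. Same-numbered libraries did not deviate together (9 pairs, r -0.141 to 0.115; 3 of 9 libraries correlated best with their own number), and with the replicate block the counts of members were 3, 0 and 5. Over all genes the calls after circSlc45a4 knockdown went from 4814 to 2430 with the 1.2-fold minimum and 1199 with the Xist covariate. After mRNA knockdown they went from 3200 to 1197, 738 and, without scramble replicate 2, 1760. Between the knockdowns they went from 4632 to 2073 with the minimum and 3059 without circSlc45a4 replicate 1. The pathway calls went from 35 to 21 and 15, from 22 to 10, 7 and 13, and from 34 to 16 and 19 under the same settings.

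The values that turned in sign follow. After circSlc45a4 knockdown Etv4 was -0.0523 with upper-quartile factors and -0.0036 with the 1 CPM filter, and Spry2 was -0.0284 with upper-quartile factors. With the Xist covariate Fgfr2 was 0.25, Spry2 -0.012 and Spry4 0.15 after circSlc45a4 knockdown, and after mRNA knockdown Dusp6 was -0.0904, Etv1 -0.0361, Etv4 0.0619, Fgfr1 0.0666, Fgfr2 0.10 and Fgfr3 0.18. Between the knockdowns Fgfr2 was -0.0058 with upper-quartile factors. Without single libraries the ranges were -0.0691 to 0.14 for Spry2 and -0.28 to 0.21 for Etv4 after circSlc45a4 knockdown. After mRNA knockdown they were -0.13 to 0.13 for Fgfr1, -0.21 to 0.0175 for Fgfr3, -0.10 to 0.0545 for Spry1 and -0.14 to 0.26 for Etv1. Between the knockdowns they were -0.10 to 0.17 for Fgfr2 and -0.0025 to 0.58 for Spry4. Depth limits Spry4, Etv4, Fgf9 and Dusp9, with 0.0671 to 0.143 CPM standing for 3 counts.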

Other observations

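After circSlc45a4 knockdown, of 8 deep-layer neuron genes tested, Fezf2, Foxp2, Tle4 and Crym were higher and Sox5 was lower (median log2 fold change 0.54), with summed levels of 921.2 to 1151 CPM in scramble and 1195 to 1441 CPM after knockdown. Of the 5 tested genes of ventral and inhibitory neurons, Gad2, Dlx1 and Dlx2 were lower (median -1.54) at summed levels of 3.06 to 6.916 CPM in scramble and 1.722 to 2.683 CPM after knockdown. Over all genes tested 14.1% were higher and 13.0% lower in this comparison. In the cortical hem and choroid plexus list 1 of 7 genes was tested, Rspo3, a Wnt agonist gene, which was higher after Slc45a4 mRNA knockdown (0.88 ± 0.18, adjusted p = 0.00527, edgeR).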
